A study of Homo sapiens with 6 samples.

Results

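The 7 genes described here are MBD3, MIF, SIVA1, C9orf16, ZBTB20, DYNLT3 and IGF2BP3, out of 26485 genes in the count table. They were chosen from the same libraries because their counts differed between the mock and both non-targeting siRNA libraries, so their differences in that comparison are a description and carry no test. All 7 had enough counts to be tested, as had 13562 genes in all. The choice set no fixed threshold: ordered by the unadjusted p of SCR against mock, the 7 genes stood at positions 1, 2, 3, 7, 119, 166 and 186. MBD3, MIF, SIVA1 and C9orf16 were the 4 that were lower with non-targeting siRNAs, and ZBTB20, DYNLT3 and IGF2BP3 were the 3 that were higher.

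The RNA came from HCC38, a human breast cancer line labelled triple negative and basal-like, and poly(A) RNA was sequenced in 6 libraries. The siCIP2A group had 3 siRNAs against CIP2A (siCIP2A#1, siCIP2A#2 and siCIP2A#3) with 1 library per siRNA, the SCR group likewise had SCR#2 and SCR#3, which target no gene, and the mock was 1 library. Oligofectamine was the transfection reagent. The mock is described in one label as reagent alone and in the design text as not transfected, so in SCR against mock the siRNA and the reagent cannot be told apart. The time after transfection is not given in the sources used here. Separate cultures are not mentioned, so any p-value reflects only how far these libraries differ, possibly for technical reasons.

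The libraries held 13995187 (mock) to 18161451 (siCIP2A#1) counts. CIP2A, the siRNA target, stood at 16.3 to 45.8 CPM with siCIP2A, 99.8 and 103 CPM with SCR and 98.9 CPM in the mock, where CPM is the count relative to the TMM-scaled library size. The simple-epithelium keratins KRT8 and KRT18 were high in every library (at least 252 CPM on library totals), whereas the basal keratins KRT5 and KRT17 had at most 1 count and KRT14 had 0 in every library, and EPCAM, CDH1 and KRT19 stayed at 1.22 CPM or less. EGFR, the other gene of the basal list, stood at 74.2 to 83.4 CPM. Of the hormone receptor list, ESR1 had at most 6 counts and PGR at most 2 in any library, and ERBB2 stood at 48.3 to 74.1 CPM. Of markers of other cell types, PTPRC of leukocytes, CDH5 of endothelium and ADIPOQ of adipocytes had 0 counts in every library. The summed CPM of the 5 leukocyte markers was 0.414 to 0.708 with siCIP2A, 0.409 to 0.746 with SCR and 0.357 in the mock, that of the 4 endothelial markers 7.15 to 13.8, 9.70 to 10.8 and 7.36, and that of the 4 fibroblast markers 6.14 to 18.3, 6.51 to 7.71 and 7.36, each in the same order of groups. These are bulk libraries, in which fewer cells of a state and less RNA per cell cannot be told apart.

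Gene silencing experiments use a mock and non-targeting siRNAs as controls for different things. A mock shares the handling and, where used, the lipid reagent, while a non-targeting siRNA also occupies Argonaute and can lower transcripts through seed matches that have nothing to do with the intended target. The 7 genes belong to no single pathway. MBD3 is a core subunit of the NuRD complex, which couples nucleosome remodelling to histone deacetylation. MIF is a secreted cytokine with tautomerase activity whose receptor is CD74. SIVA1 is a pro-apoptotic protein first found through its binding to the TNF receptor family member CD27. C9orf16, listed by RefSeq as BBLN, encodes a small coiled-coil protein. ZBTB20 is a BTB-domain zinc finger transcriptional repressor. DYNLT3 is a light chain of cytoplasmic dynein that binds the checkpoint protein BUB3. IGF2BP3 is an oncofetal RNA-binding protein that stabilises bound mRNAs.

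The choice of genes did not use base composition itself. The difference of SCR and mock, which it did use, went with GC content across 11707 tested genes (Pearson's r = -0.65, described below). Genes chosen from both sides of that difference would thus tend to differ in GC content. The 4 genes that were lower with SCR and the 3 that were higher stood at opposite ends of base composition. One stretch of 60 coding bases is shown for each gene, to make that contrast visible. Each lies within a single coding exon of the GENCODE 29 transcript (GRCh38) and is the first stretch whose GC share was nearest to that of the whole transcript. Bases are given 5′ to 3′ on the coding strand, and capitals mark G and C.

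MBD3, exon 1 of 7, chr19:1592532-1592591, minus strand: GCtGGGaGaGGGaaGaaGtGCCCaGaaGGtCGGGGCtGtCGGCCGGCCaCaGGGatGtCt

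MIF, exon 1 of 3, chr22:23894486-23894545, plus strand: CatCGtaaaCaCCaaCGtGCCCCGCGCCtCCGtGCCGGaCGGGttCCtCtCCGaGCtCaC

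SIVA1, exon 2 of 4, chr14:104755634-104755693, plus strand: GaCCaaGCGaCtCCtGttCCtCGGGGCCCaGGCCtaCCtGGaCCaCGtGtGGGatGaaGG

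C9orf16, exon 2 of 2, chr9:128163509-128163568, plus strand: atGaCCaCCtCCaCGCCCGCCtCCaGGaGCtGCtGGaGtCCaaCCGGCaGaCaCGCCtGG

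ZBTB20, exon 9 of 10, chr3:114350300-114350359, minus strand: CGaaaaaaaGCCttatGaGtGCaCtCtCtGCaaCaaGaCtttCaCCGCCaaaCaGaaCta

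DYNLT3, exon 3 of 5, chrX:37841784-37841843, minus strand: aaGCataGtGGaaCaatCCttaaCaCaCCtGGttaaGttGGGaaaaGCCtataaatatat

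IGF2BP3, exon 6 of 15, chr7:23351510-23351569, minus strand: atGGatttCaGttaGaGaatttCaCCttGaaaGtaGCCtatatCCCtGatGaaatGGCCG

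In these stretches 39 to 41 of 60 bases were G or C in MBD3, MIF, SIVA1 and C9orf16, and 21 to 26 in ZBTB20, DYNLT3 and IGF2BP3. Each stretch was picked to be near its transcript in GC content, so it does not describe the coding sequence as a whole. For ZBTB20, with 2004 coding bases in a transcript of 27125, the nearest stretch had 43.3% GC, above the transcript. Over the whole transcript the GC content was 68.2% for C9orf16, 67.0% for MBD3, 66.7% for MIF and 64.2% for SIVA1. It was 40.5% for IGF2BP3, 39.3% for ZBTB20 and 34.6% for DYNLT3. The median of 11707 tested genes with a transcript and mean log2 CPM not under 1 was 48.3%. A GC content at or above that of SIVA1 was found in 4.93% of them, and one at or below that of IGF2BP3 in 17.9%. Transcript length divided the genes less cleanly: C9orf16 (713 bases), SIVA1 (802 bases) and MIF (939 bases) were short, MBD3 (2439 bases) and DYNLT3 (2217 bases) were nearer to the median of 3161 bases, and IGF2BP3 (4250 bases) and ZBTB20 (27125 bases) were longer. In the RefSeq window from 250 bases before to 50 after the transcription start (GRCh38.p14), GC content was 77.0% for MBD3, 74.3% for C9orf16, 72.0% for SIVA1, 70.3% for MIF, 63.3% for DYNLT3 and 56.3% for IGF2BP3. The 8 listed starts of ZBTB20 ranged from 35.0% to 55.7%, and the median over 15551 starts of tested genes was 64.7%.

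MBD3 lies on chromosome 19 from 1573596 to 1592865 (GRCh38.p14, as are all gene positions here). It stood at 92.1, 93.5 and 95.4 CPM with siCIP2A#1, siCIP2A#2 and siCIP2A#3, at 65.3 and 64.5 CPM with SCR#2 and SCR#3 and at 115 CPM in the mock (95% exact binomial interval 109 to 121, covering counting error only). The 3 groups did not overlap: the mock was highest, SCR lowest, and the siCIP2A libraries lay between. The means were 93.7 ± 1.66 CPM with siCIP2A (SD, n = 3) and 64.9 ± 0.539 CPM with SCR (SD, n = 2). From edgeR's fit the log2 difference of SCR minus mock was -0.82 (SE 0.12), or 0.565 of the mock level. That of siCIP2A minus mock was -0.30 (SE 0.11), and that of siCIP2A minus SCR was 0.53 (SE 0.09).

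MIF lies on chromosome 22 from 23894383 to 23895223. It stood at 40.7, 45.6 and 42.0 CPM with siCIP2A#1, siCIP2A#2 and siCIP2A#3, at 32.9 and 31.7 CPM with SCR#2 and SCR#3 and at 59.6 CPM in the mock (interval 55.5 to 63.8). The order of the groups was that of MBD3, again without overlap. The means were 42.8 ± 2.54 CPM with siCIP2A (SD, n = 3) and 32.3 ± 0.822 CPM with SCR (SD, n = 2). The log2 difference was -0.88 (SE 0.14) for SCR minus mock, -0.48 (SE 0.13) for siCIP2A minus mock and 0.41 (SE 0.11) for siCIP2A minus SCR. The antisense gene MIF-AS1 had 0 to 4 counts per library, against 467 to 818 for MIF.

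SIVA1 lies on chromosome 14 from 104753147 to 104759654. It stood at 46.1, 53.3 and 50.2 CPM with siCIP2A#1, siCIP2A#2 and siCIP2A#3, at 34.4 and 33.9 CPM with SCR#2 and SCR#3 and at 60.5 CPM in the mock (interval 56.5 to 64.8). The groups did not overlap, and the 2 SCR libraries differed by less than the siCIP2A libraries did among themselves. The means were 49.9 ± 3.60 CPM with siCIP2A (SD, n = 3) and 34.2 ± 0.355 CPM with SCR (SD, n = 2). The log2 difference was -0.82 (SE 0.14) for SCR minus mock, -0.28 (SE 0.13) for siCIP2A minus mock and 0.54 (SE 0.11) for siCIP2A minus SCR.

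C9orf16 lies on chromosome 9 from 128160265 to 128163924. It stood at 23.5, 27.0 and 21.4 CPM with siCIP2A#1, siCIP2A#2 and siCIP2A#3, at 17.8 and 15.95 CPM with SCR#2 and SCR#3 and at 32.8 CPM in the mock (interval 29.8 to 35.9). It had the lowest SCR level relative to the mock of the 7 genes, 0.516 of it, and the order of the groups was the same as for the other 3 GC-rich genes. The means were 24.0 ± 2.83 CPM with siCIP2A (SD, n = 3) and 16.9 ± 1.33 CPM with SCR (SD, n = 2). The log2 difference was -0.95 (SE 0.18) for SCR minus mock, -0.45 (SE 0.17) for siCIP2A minus mock and 0.50 (SE 0.14) for siCIP2A minus SCR.

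Of the genes that were higher with SCR, ZBTB20 lies on chromosome 3 from 114314500 to 115147288. It stood at 23.9, 24.9 and 23.2 CPM with siCIP2A#1, siCIP2A#2 and siCIP2A#3, at 27.0 and 23.8 CPM with SCR#2 and SCR#3 and at 16.5 CPM in the mock (interval 14.4 to 18.8). Here the siCIP2A and SCR libraries overlapped and the mock alone stood apart. The means were 24.0 ± 0.829 CPM with siCIP2A (SD, n = 3) and 25.4 ± 2.30 CPM with SCR (SD, n = 2). The log2 difference was 0.62 (SE 0.17) for SCR minus mock, 0.54 (SE 0.17) for siCIP2A minus mock and -0.08 (SE 0.12) for siCIP2A minus SCR; without SCR#2 the last turned to 0.01. The antisense genes ZBTB20-AS1, ZBTB20-AS3 and ZBTB20-AS4 had at most 2 counts in any library.

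DYNLT3 lies on the X chromosome from 37838836 to 37847571. It stood at 55.4, 51.0 and 59.3 CPM with siCIP2A#1, siCIP2A#2 and siCIP2A#3, at 65.4 and 60.1 CPM with SCR#2 and SCR#3 and at 44.3 CPM in the mock (interval 40.9 to 48.0). The highest siCIP2A library was just below the lower SCR library, so the groups did not overlap but siCIP2A and SCR nearly touched. The means were 55.2 ± 4.19 CPM with siCIP2A (SD, n = 3) and 62.7 ± 3.79 CPM with SCR (SD, n = 2). The log2 difference was 0.50 (SE 0.15) for SCR minus mock, 0.32 (SE 0.14) for siCIP2A minus mock and -0.18 (SE 0.11) for siCIP2A minus SCR.

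IGF2BP3 lies on chromosome 7 from 23310209 to 23470491. It stood at 121, 115 and 116 CPM with siCIP2A#1, siCIP2A#2 and siCIP2A#3, at 156 and 140 CPM with SCR#2 and SCR#3 and at 112 CPM in the mock (interval 106 to 117). The siCIP2A libraries were close to the mock, whose interval covered the levels with siCIP2A#2 and siCIP2A#3, and SCR stood above both. The means were 118 ± 3.24 CPM with siCIP2A (SD, n = 3) and 148 ± 11.6 CPM with SCR (SD, n = 2). The log2 difference was 0.41 (SE 0.13) for SCR minus mock, 0.07 (SE 0.12) for siCIP2A minus mock and -0.33 (SE 0.09) for siCIP2A minus SCR.

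**Figure D1:**
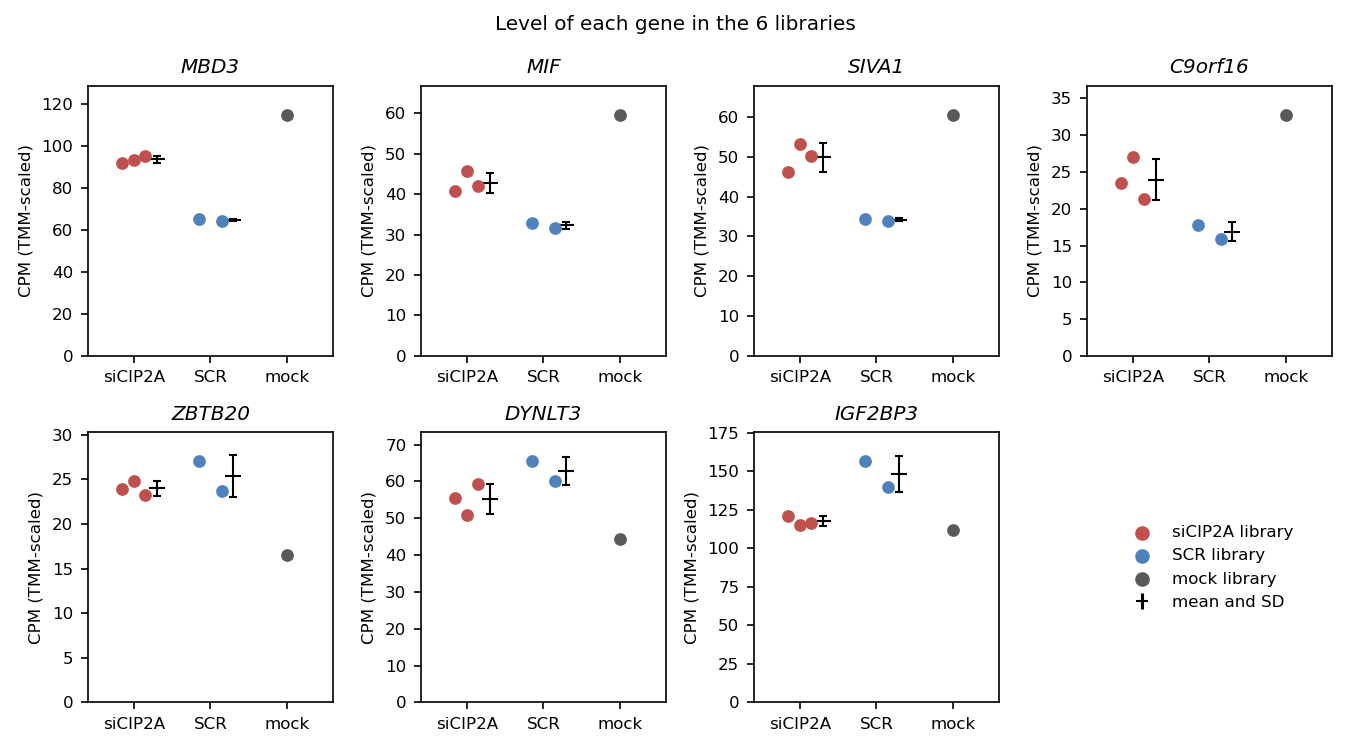
CPM (TMM-scaled, linear axis from 0) of each of the 7 genes in the 3 siCIP2A libraries, the 2 SCR libraries and the mock; points are libraries and black marks are the mean and SD of a group with more than 1 library. The mock is highest for MBD3, MIF, SIVA1 and C9orf16 and lowest for ZBTB20, DYNLT3 and IGF2BP3.

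For SCR against mock no gene passed the quasi-likelihood test of edgeR after Benjamini-Hochberg adjustment: 0 of 13562 were called (0%), with 856 at an unadjusted p under 0.05, and limma-voom also called 0. DESeq2 called 3 genes lower with SCR (0.0221% of those tested), MBD3 (log2 difference -0.82, DESeq2 adjusted p = 0.00449), MIF (-0.88, DESeq2 adjusted p = 0.0274) and BOP1 (-0.83, DESeq2 adjusted p = 0.0274). Without a filter on low counts edgeR called 5 of 19137 genes (0.0261%), all lower with SCR: MBD3, MIF, SIVA1, C9orf16 and BOP1, which encodes a ribosome biogenesis factor. As the genes were chosen on this contrast, these counts say nothing further about them. By size, both SCR libraries were at least 1.5-fold below the mock for 1.43% of tested genes, MBD3, MIF, SIVA1 and C9orf16 among them. Both were at least 1.5-fold above it for 1.09%, none of them among the 7 genes: for ZBTB20 the log2 CPM difference was 0.71 with SCR#2 and 0.52 with SCR#3, for DYNLT3 0.56 and 0.44, and for IGF2BP3 0.49 and 0.33.

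The genes were chosen on mock and SCR, with the siCIP2A values also known. The test called 0 genes (0%) for siCIP2A against mock and 0 (0%) for siCIP2A against SCR, with 359 and 755 genes at an unadjusted p under 0.05. CIP2A, the siRNA target, was not called either. Its log2 difference was -1.87 (SE 0.43) for siCIP2A minus mock and -1.91 (SE 0.36) for siCIP2A minus SCR. A count of 0 therefore does not show that the groups were alike. The choice had used the SCR libraries, so the difference of siCIP2A and SCR is not free of it either. DESeq2 called 0 genes for siCIP2A against mock and 3 for siCIP2A against SCR (0.0221%), MBD3 (log2 difference 0.53, DESeq2 adjusted p = 0.0472) with HMOX1 and SLC43A2. All 3 siCIP2A libraries were above both SCR libraries for MBD3, MIF, SIVA1 and C9orf16, as for 12.7% of tested genes. All 3 were below both SCR libraries for DYNLT3 and IGF2BP3, as for 11.5% of tested genes.

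For 6 of the 7 genes, all but ZBTB20, every siCIP2A library lay between the mock and both SCR libraries, which was so for 5.91% of tested genes. The position of the siCIP2A mean on the way from the SCR mean to the mock, on the log2 CPM scale, was 81.8% for IGF2BP3, 65.8% for SIVA1, 64.1% for MBD3, 52.3% for C9orf16, 45.8% for MIF, 37.2% for DYNLT3 and 12.7% for ZBTB20. A position in between is common among genes picked for a wide distance between mock and SCR. The siCIP2A mean lay between the SCR mean and the mock for 294 of the 342 genes with both SCR libraries at least 1.5-fold from the mock (86.0%), and for 46.6% of all tested genes. The comparisons of SCR and of siCIP2A with the mock share the mock library, which is a single one.

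Within the siCIP2A group the order of the 3 libraries varied by gene. With siCIP2A#2, which lowered CIP2A least, MIF, SIVA1 and C9orf16 were the highest of the 3 siCIP2A libraries and DYNLT3 and IGF2BP3 the lowest. In both directions this is the side of the mock. MBD3 and ZBTB20 had another order: siCIP2A#3 was highest for MBD3, and siCIP2A#2 was highest for ZBTB20, on the side away from the mock. The 95% counting intervals of all 3 siCIP2A libraries overlapped for MBD3, MIF, ZBTB20 and IGF2BP3. For SIVA1, C9orf16 and DYNLT3 the siCIP2A#2 interval overlapped that of another siCIP2A library. The siCIP2A#2 library was also near the mock by GC content (median deviation 0.14 and 0.15 in the highest GC quintile, described below). A relation of these orders to the CIP2A level was not tested. Each siRNA had 1 library, so these differences have no replicate check.

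The whole transcriptome differed between SCR and mock by GC content in the same directions as the 7 genes. Tested genes were divided into quintiles by transcript GC content. The median log2 difference of SCR minus mock was 0.16 in the lowest quintile (31.8% to 41.0% GC), 0.09, 0.01 and -0.11 in the next ones and -0.27 in the highest (58.3% to 73.5%). MBD3, MIF, SIVA1 and C9orf16 were in the highest quintile, and ZBTB20, DYNLT3 and IGF2BP3 in the lowest. Both SCR libraries were at least 1.5-fold below the mock for 4.10% of genes in the highest quintile and for 0% in the lowest. Both were at least 1.5-fold above it for 0.0854% in the highest and 0.512% in the lowest. The quintiles held only genes with a transcript and mean log2 CPM not under 1, whereas the 1.09% above covered all tested genes. Transcript length went with a smaller gradient, from a median of -0.08 in the shortest quintile to 0.09 in the longest. Across 11707 genes, which are not independent and share the same libraries, Pearson's r between GC content and the log2 difference of SCR minus mock was -0.65.

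**Figure D2:**
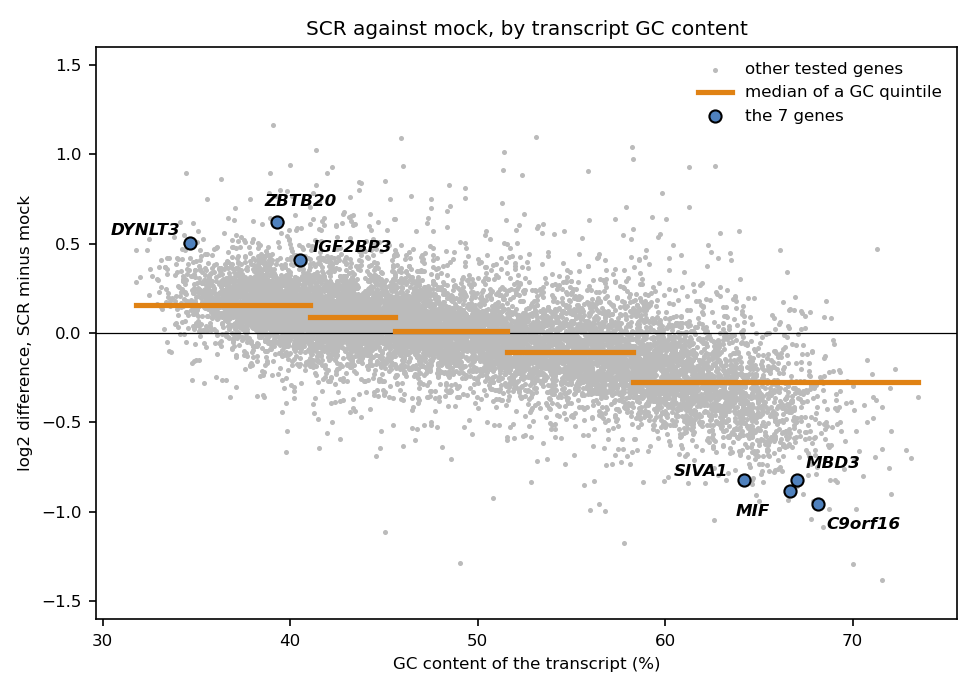
Log2 difference of SCR minus mock from edgeR's fit (y axis) against the GC content of the transcript in percent (x axis), for 11707 tested genes (grey), the 7 genes (blue) and the median of each quintile of GC content (orange bars); 0 genes lie beyond the y axis, which ends at 1.6 in both directions. The medians go down from 0.16 to -0.27 with rising GC content, and the 7 genes lie beyond the median of their quintile in the same direction.

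The 7 genes were further from the mock than most genes in their quintile of GC content. Of 2342 genes in the highest quintile of GC content, 7 were lower with SCR than C9orf16, 15 lower than MIF, 27 lower than MBD3 and 29 lower than SIVA1. Of 2342 in the lowest quintile, 20 were higher with SCR than ZBTB20, 49 higher than DYNLT3 and 122 higher than IGF2BP3. The genes of a quintile were not matched for GC content within it: in the highest, 577 had a GC content at or above that of SIVA1. These positions follow from the choice of the genes and are a description.

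Each library had its own dependence on GC content. The median deviation of log2 CPM from the gene mean in the highest quintile of GC content was 0.03 with siCIP2A#1, 0.14 with siCIP2A#2, -0.05 with siCIP2A#3, -0.14 with SCR#2, -0.12 with SCR#3 and 0.15 in the mock. In the lowest quintile it was -0.01, -0.09, 0.05, 0.08, 0.07 and -0.09, in the same order of libraries. The siCIP2A#2 library was thus nearest to the mock and siCIP2A#3 nearest to SCR, and both SCR libraries went together. The siCIP2A libraries differed among themselves in this respect, and for the mock, a single library, group and library cannot be told apart.

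**Figure D3:**
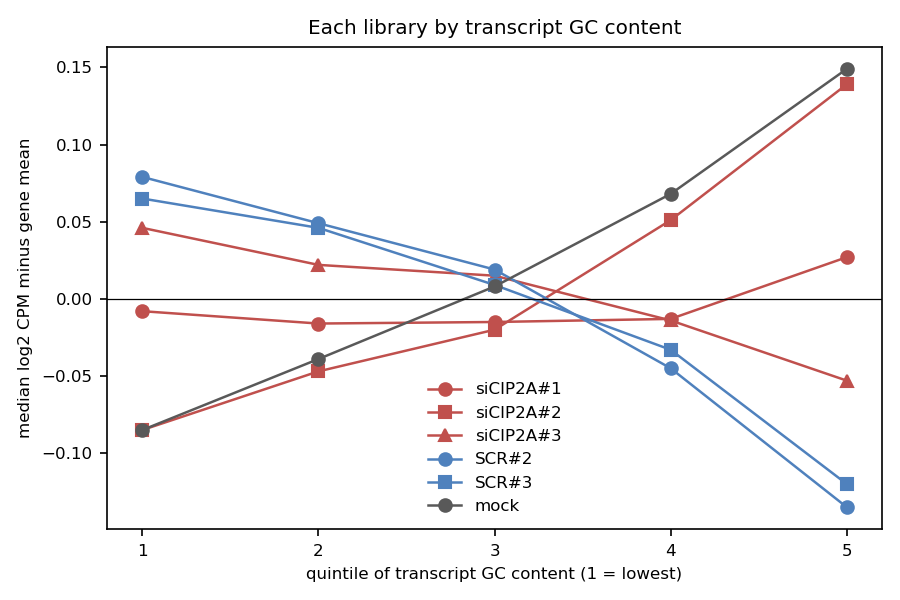
Median of log2 CPM minus the gene's mean over the 6 libraries (y axis) in each quintile of transcript GC content (x axis, 1 = lowest), with 1 line per library (red siCIP2A, blue SCR, grey mock). The mock and siCIP2A#2 lines rise with GC content to 0.15 and 0.14, and the SCR#2 and SCR#3 lines fall to -0.14 and -0.12.

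The fit was repeated with offsets that remove, library by library, a quadratic dependence on the GC content and log length of transcripts. The log2 difference of SCR minus mock was then -0.44 for MBD3, -0.48 for MIF, -0.48 for SIVA1, -0.50 for C9orf16, 0.44 for ZBTB20, 0.32 for DYNLT3 and 0.27 for IGF2BP3. All 7 kept their direction, with 52.6% (C9orf16) to 70.8% (ZBTB20) of the log2 difference found without offsets. The genes were chosen on this contrast and the fit with offsets used the same libraries, so a kept direction follows largely from the choice. For siCIP2A minus mock all 7 also kept their direction, at -0.30 for MIF, -0.26 for C9orf16, -0.15 for MBD3, -0.11 for SIVA1, 0.37 for ZBTB20, 0.25 for DYNLT3 and 0.02 for IGF2BP3. The share kept was 27.2% (IGF2BP3) to 80.0% (DYNLT3). For siCIP2A minus SCR the values were 0.37 for SIVA1, 0.29 for MBD3, 0.25 for C9orf16, 0.18 for MIF, -0.07 for ZBTB20, -0.07 for DYNLT3 and -0.25 for IGF2BP3. Here the share kept was 36.8% (DYNLT3) to 79.5% (ZBTB20). With the offsets edgeR called 0 genes for SCR against mock, with 210 at an unadjusted p under 0.05, and the medians of the GC quintiles lay between -0.01 and 0.00. Whether the gradient arose in the cells or in library preparation was not tested.

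**Figure D4:**
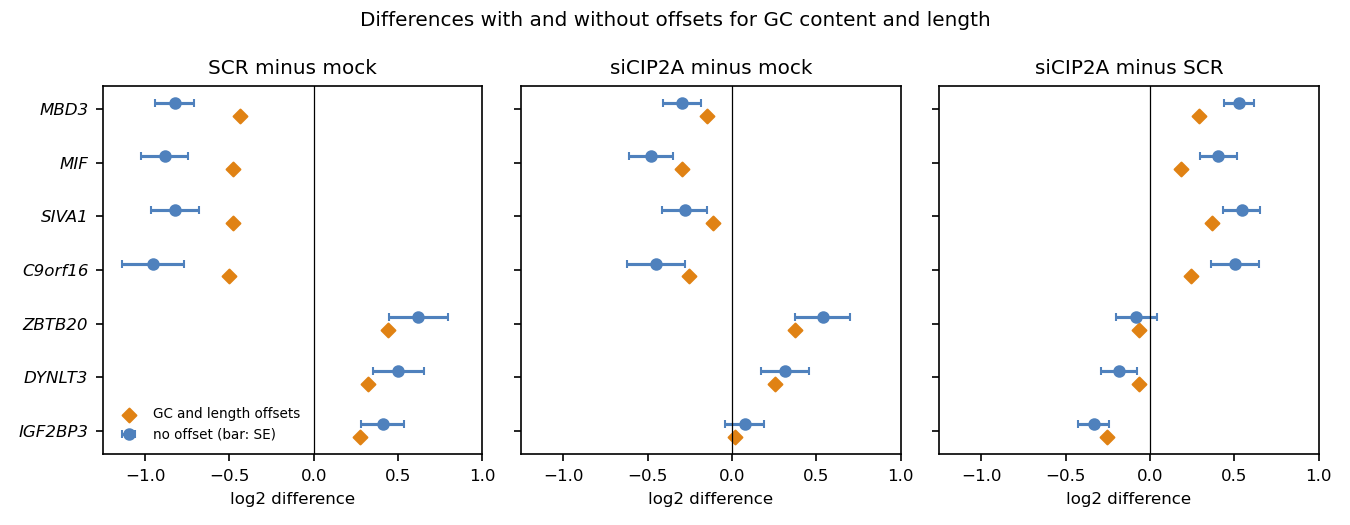
Log2 differences of the 7 genes for SCR minus mock, siCIP2A minus mock and siCIP2A minus SCR (x axes), without offsets (blue points, bars SE) and with offsets for transcript GC content and length (orange diamonds). Every diamond is nearer to 0 than its point and on the same side, from -0.50 to 0.44 for SCR minus mock.

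Paralogs and partners of the 7 genes were examined next, by level and count alone. The 7 genes were chosen for the difference of SCR and mock, so smaller differences in their relatives follow in part from the choice. The paralogs also differed in transcript GC content, with 45.8% for MBD2, 43.4% for DYNLT1, 49.6% for IGF2BP1 and 48.7% for IGF2BP2. MBD2, the methyl-CpG-binding paralog of MBD3 that forms its own NuRD complex, differed by 0.06 (log2, SE 0.13) for SCR minus mock, and the NuRD helicase CHD4 by 0.00 (SE 0.12), the deacetylase HDAC1 by 0.08 (SE 0.12) and MTA2 by -0.15 (SE 0.12). Of the 14 other tested NuRD genes 0 were called in either direction, with a median of -0.02, and the furthest were GATAD2A at -0.33 and MTA1 at -0.24. With GC and length offsets GATAD2A stood at -0.24, MTA2 at -0.04 and MTA1 at 0.00, and MBD2 turned to -0.01. Over all 13562 tested genes the median was 0.0023. DDT, the paralog of MIF that lies beside it on chromosome 22, stood at 22.6, 24.7 and 24.8 CPM with siCIP2A#1, siCIP2A#2 and siCIP2A#3, 24.3 and 24.8 CPM with SCR#2 and SCR#3 and 31.7 CPM in the mock. Its log2 difference was -0.37 (SE 0.16) for SCR minus mock, or -0.14 with offsets, and its transcript had a GC content of 59.2%. CD74, the MIF receptor, had at most 2 counts in any library and was not tested. The 6 other tested genes of the MIF list had a median of 0.02 (-0.05 with offsets), with HTRA1 at 0.22 (0.40 with offsets), and 0 were called.

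Of 13 other tested genes among SIVA1 partners and p53-linked apoptosis genes 0 were called for SCR against mock, with a median of -0.07. PMAIP1, which encodes the BH3-only protein NOXA, stood at 0.40 (SE 0.15) and the transcription factor gene E2F1 at -0.28 (SE 0.14). With offsets they stood at 0.25 and -0.01. CD70, which encodes the ligand of CD27, was further from 0 at -1.15 (SE 0.47, -0.91 with offsets) on few counts: 25, 28 and 23 with siCIP2A#1, siCIP2A#2 and siCIP2A#3, 12 and 18 with SCR#2 and SCR#3 and 29 in the mock. DYNLT1, the paralog of DYNLT3, differed by 0.03 (SE 0.15) and BUB3 by 0.07 (SE 0.13), and both turned with offsets, to -0.02 and -0.07. The 23 other tested genes of cytoplasmic dynein and dynactin had a median of 0.01 (-0.01 with offsets), with 0 called, and DYNC1I1 at 0.41 (SE 0.48) and DCTN3 at -0.29 (SE 0.12, -0.15 with offsets) were furthest from 0. The paralogs of IGF2BP3 differed by 0.03 (IGF2BP1, SE 0.13, 0.02 with offsets) and 0.08 (IGF2BP2, SE 0.13, 0.06 with offsets), where IGF2BP3 stood at 0.41 (0.27 with offsets). The 16 other tested genes of the IGF2BP, let-7 and m6A list had a median of 0.06, with 0 called, the m6A writer subunit METTL14 at 0.36 and the m6A eraser ALKBH5 at -0.27. With offsets the median was 0.02, METTL14 stood at 0.19 and ALKBH5 at -0.17. The 39 other tested BTB zinc finger genes had a median of 0.02 (-0.02 with offsets), with 0 called, and the furthest were ZBTB12 at -0.50 (SE 0.35) and ZBTB45 at -0.49 (SE 0.31), which stood at -0.20 and -0.13 with offsets. Lists were not set against each other by a test.

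The genes most like each of the 7 over the 6 libraries were found by the root mean square difference of log2 CPM centred on the gene mean, among 8650 genes with mean log2 CPM not under 4. MBD3 and SIVA1 were each other's nearest gene (0.05), followed by WDR18 for MBD3 (0.08) and TSSC4 for SIVA1 (0.07). MIF was nearest to TPRN (0.07) and C19orf24 (0.08), and C9orf16 to NDUFS7 and MRPL41 (0.07 each). Their own spread around the mean was 0.30 for MBD3, 0.30 for MIF, 0.31 for SIVA1 and 0.35 for C9orf16. These 6 other genes had transcripts with 65.9% to 72.0% GC. ZBTB20 was nearest to TTBK2 and TSNAX (0.09 each, own spread 0.22), DYNLT3 to ARHGEF6 and SAMD8 (0.04 each, own spread 0.18), and IGF2BP3 to SPA17 (0.04) and IVNS1ABP (0.05, own spread 0.17). These 6 had transcripts with 36.3% to 43.2% GC. The 6 libraries compared include the mock and SCR libraries on which the 7 genes were chosen. Likeness between chosen genes, and to genes of similar GC content, therefore follows in part from the choice and is a description.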

How the data were processed

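Poly(A) RNA of 6 HCC38 libraries had been prepared with a stranded TruSeq kit, per the labels' protocols. bcl2fastq 2.17, STAR 2.5.4b, Subread 1.5.1 and hg38 were used, per the submitters' processing notes; the sources used here do not give the annotation, the strand setting or the handling of multi-mapping reads, which leaves paralogs and overlapping genes uncertain. The deposited table holds raw read counts by gene, not normalized, per the file headers. The 7 genes and all gene lists were chosen with earlier results of these data known.

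Of the symbols, 50 that a spreadsheet had changed were restored by Entrez identifier, and KIAA1524 was renamed CIP2A. Genes were filtered with filterByExpr (minimum count 10, controls and siCIP2A as its groups) and scaled with TMM. Tests used edgeR 4.0.16 in R 4.3.3 (robust glmQLFit and glmQLFTest, Benjamini-Hochberg adjusted p under 0.05 over all tested genes), with mock, SCR and siCIP2A as 3 levels and 3 residual degrees of freedom. DESeq2 1.42.0 and limma 3.58.1 were alternatives. Log2 CPM had a prior count of 2. On simulated data, the direction of planted differences and the removal of a planted GC slope were checked. No requirement was set there on the number of genes called. Transcript GC content and length came from 1 GENCODE 29 transcript per gene and were found for 96.5% of tested genes. SEs of log2 differences are the estimate divided by the square root of F. Chi-square per degree of freedom between libraries of a group was 3.22 to 18.1, so none was a copy. Named genes were the 7, CIP2A, listed relatives and partners, and the 2 genes most like each of the 7. With them were named up to 2 genes per list furthest from 0 among those with mean log2 CPM not under 1. CD70, the antisense genes and the interferon list genes below 0 were added after their values were seen. So were genes called by DESeq2 or without a filter.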

Additional observations from a re-analysis of the deposited data

How the results depend on the processing

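The 7 genes kept their direction for SCR against mock and for siCIP2A against mock in every alternative run: other scaling factors (RLE, upper quartile), other tools (DESeq2, limma-voom), other filters (none, or CPM of 1 in 3 libraries), GC and length offsets, the replicate block, and each siRNA library left out. The genes were chosen because both SCR libraries differed from the mock, so a kept direction for SCR against mock follows largely from that choice. Every run of both contrasts also used the same single mock library. For siCIP2A against SCR the only gene that changed direction was ZBTB20, at 0.014 without SCR#2 and -0.172 without SCR#3, its extremes over left-out libraries. The number of genes called for SCR against mock, 0 in the fit as reported, was 3 with DESeq2, 5 with no filter and 0 in every fit that left out a library. For siCIP2A against mock it ranged from 0 to 1 and for siCIP2A against SCR from 0 to 1 over left-out libraries, the 1 being CIP2A without siCIP2A#2; for siCIP2A against SCR it was also 3 with DESeq2 and 2 with no filter. The share of genes past 1.5-fold in both SCR libraries, 2.52%, was 0.376% at 2-fold. Deviations from the group mean were little correlated between SCR and siCIP2A libraries of the same label number (-0.07 for number 2 and -0.04 for number 3). The deviations of SCR#2 and SCR#3 mirror each other, so these values are not separate checks. Number 1 was not examined, and whether libraries of a number shared a batch cannot be told from these values. With the replicate block, which left 1 residual degree of freedom, 60 genes were called for SCR against mock, 23 for siCIP2A against mock and 9 for siCIP2A against SCR, 0 of the 7 genes among them. The cause of these shifts was not tested. The mock is 1 library, so its own spread was not measured.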

Other observations

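Genes of the interferon and double-stranded RNA response were listed because RNA duplexes are known ligands of RNA sensors. Of 25 tested genes 20 were above 0 for SCR minus mock, with a median log2 difference of 0.22 (0.17 with GC and length offsets), beside 0.0023 over all tested genes. As that median is close to 0, all tested genes lay above and below 0 in similar numbers. For siCIP2A minus mock, which shares the mock library and so is not a separate observation, 19 of the list were above 0. Their median was 0.20 (0.15 with offsets), beside -0.0071 over all tested genes. None passed edgeR's test in either comparison (0 called, with 2 at an unadjusted p under 0.05 for SCR against mock). IFI44, an interferon-induced gene, stood at 8.06, 9.24 and 8.19 CPM with siCIP2A#1, siCIP2A#2 and siCIP2A#3, at 9.47 and 9.09 CPM with SCR#2 and SCR#3 and at 4.15 CPM in the mock. OASL stood at 2.06, 9.30 and 7.90 CPM with siCIP2A#1, siCIP2A#2 and siCIP2A#3. It stood at 3.80 and 6.58 CPM with SCR#2 and SCR#3 and at 2.55 CPM in the mock, so siCIP2A#1 was below the mock. IFI44 and OASL were the genes of the list furthest above 0 for SCR minus mock. The 5 below 0 were ISG20 (-0.53), MX1 (-0.48), IRF7 (-0.48), ISG15 (-0.30) and IRF1 (-0.26). A cause of these differences was not tested. Of 13 tested RNA interference genes 0 were called, with a median of -0.06 for SCR minus mock. AGO4 stood at 0.37 (SE 0.255, 0.275 with offsets) and TARBP2 at -0.26 (-0.02 with offsets). The AGO4 level was 32.15 CPM with SCR#2, 23.0 CPM with SCR#3 and 21.3 CPM in the mock. With SCR#3 it was thus close to the mock.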
